A study of Mus musculus with 6 samples.

Results

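The chondroitin sulfate proteoglycans and tenascins of the neural extracellular matrix were followed through the forebrains of Parp1 conditional knockout and control mice at postnatal day 9. The set was fixed by name as 10 genes, Cspg4, Cspg5, Ptprz1, Vcan, Bcan, Ncan, Acan, Tnr, Tnc and Xylt1, and all 10 were found among the 35275 genes of the deposited tables. The study's knockout group (cKO) was 3 C57BL/6 mice of genotype Pdgfra-CreER:Parp1fl/fl, in which tamoxifen activates a recombinase made by cells that express Pdgfra. The control group was 3 littermates that carried the same floxed Parp1 alleles and no recombinase. Mice of both groups were injected with tamoxifen daily on postnatal days 1 to 3, so the drug is common to both, and both sexes were used. Pdgfra marks oligodendrocyte precursor cells, and fibroblasts of the brain's coverings also express it. RNA came from whole forebrain, so fewer cells of a type and less RNA per cell cannot be told apart in any value below.

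Most of these genes encode a core protein that carries chondroitin sulfate, a long sulfated sugar chain. In brain, the lecticans (versican, brevican, neurocan and aggrecan, from Vcan, Bcan, Ncan and Acan) bind hyaluronan at one end and tenascin-R at the other, and so form a hydrated meshwork around neurons and glia. Cspg4 and Cspg5 encode the membrane proteoglycans NG2 and neuroglycan C, and Ptprz1 encodes a receptor phosphatase whose secreted form is phosphacan. Tnr and Tnc encode the glycoproteins tenascin-R and tenascin-C, and Xylt1 encodes a xylosyltransferase that starts the chondroitin sulfate chain on the core protein. Oligodendrocyte precursors are a known source of several of these, NG2 being their classic surface marker.

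Total counts ran from 17262042 to 29310193 reads per library. Parp1, the floxed gene, was at 80.8, 79.7 and 79.1 CPM (counts scaled to library depth with TMM factors) in cKO libraries and at 90.8, 97.3 and 85.6 CPM in controls, or -0.19 as log2 fold change (adjusted p = 0.572, edgeR). That count covers all cells and all exons, so it does not measure deletion within the targeted cells. Control replicate 3 stood apart on the first principal component. Its mean log2 level of striatal neuron markers was -1.06 relative to all 6 libraries, and that of thalamic neuron markers was 0.63. Control replicate 1 alone had Y-linked reads, with 1123 of Ddx3y against at most 1 in every other library, so sex was not balanced. Markers of neurons, astrocytes and oligodendrocyte precursors were abundant in every library, with summed neuron markers of 8393 to 8840 CPM in the cKO group and 8454 to 9214 CPM in the control group.

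The 250 bases upstream of the RefSeq transcription start (build GRCm38.p6) are shown for Tnr, the gene called between the groups, for Cspg4, whose fold change was the furthest from 0, and for Ncan, whose fold change was the nearest to 0. Capitals mark matches, on either strand, to the SOX factor cores ACAAAG and ACAATN, the E-boxes CAGCTG and CATATG, the GC box GGGCGG and the TATA box TATAAA. Tnr lies at chr1:159523519-159523768 (plus strand), Cspg4 at chr9:56864854-56865103 (plus strand) and Ncan at chr8:70120845-70121094 (minus strand).
Tnr: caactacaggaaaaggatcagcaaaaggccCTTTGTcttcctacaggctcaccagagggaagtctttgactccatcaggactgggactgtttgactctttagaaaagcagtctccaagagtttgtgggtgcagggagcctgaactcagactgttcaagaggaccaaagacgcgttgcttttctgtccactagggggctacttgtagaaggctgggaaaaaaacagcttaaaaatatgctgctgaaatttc
Cspg4: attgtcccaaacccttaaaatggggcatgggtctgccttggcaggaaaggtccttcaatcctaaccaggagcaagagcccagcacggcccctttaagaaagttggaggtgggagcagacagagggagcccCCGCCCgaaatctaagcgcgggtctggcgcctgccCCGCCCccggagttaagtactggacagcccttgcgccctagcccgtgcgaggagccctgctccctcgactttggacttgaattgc
Ncan: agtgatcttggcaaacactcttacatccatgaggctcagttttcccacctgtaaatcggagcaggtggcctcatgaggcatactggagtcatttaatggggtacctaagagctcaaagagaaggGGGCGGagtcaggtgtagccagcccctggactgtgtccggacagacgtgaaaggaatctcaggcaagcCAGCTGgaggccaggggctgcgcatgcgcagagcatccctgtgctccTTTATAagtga
RefSeq windows of 300 bases, which add 50 bases past the start, were matched for 8 of the 10 genes, as 9 windows of which the 2 of Tnc overlap. The SOX core ACAAAG was in 1 of the 9 windows, that of Tnr, and in 18.7% of all 32851 promoter windows. ACAATN was in 2, both of Tnc, against 31.0% of all windows, and CAGCTG was in 2, those of Acan and Ncan, against 16.3%. CATATG was in none (0) of the 9 windows and in 3.91% of all. The GC box was in 8 of the 9 windows, all but that of Tnr, and in 35.7% of all windows. TATAAA was in 3, of Tnc and Ncan, against 13.6%. These matches describe letters, and binding was not measured.

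All 10 genes had a lower mean in cKO than in control forebrains, and 1 of them, Tnr, passed the test (an adjusted p under 0.05, named a call in what follows). Across the transcriptome, 16938 genes were tested with edgeR's quasi-likelihood test and 35 fell, which is 0.207% of those tested, while 10 rose (0.059%), so that 0.266% were called in either direction. Of the 10 genes here, 1 fell and 0 rose, and 9 had an unadjusted p under 0.05, all lower, against 2.75% of all tested genes lower and 3.52% higher. By sign alone, 50.2% of tested genes were below 0. All 10 genes passed the filter on low counts. In 9 of the 10, each cKO library lay below each control library, as did 5.86% of all tested genes, while 6.08% were separated the other way. The median log2 fold change was -0.32 over the 10 genes and -0.00 over all tested genes. The 10 genes were chosen with earlier results of these data known, so their counts are a description.

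**Figure D1:**
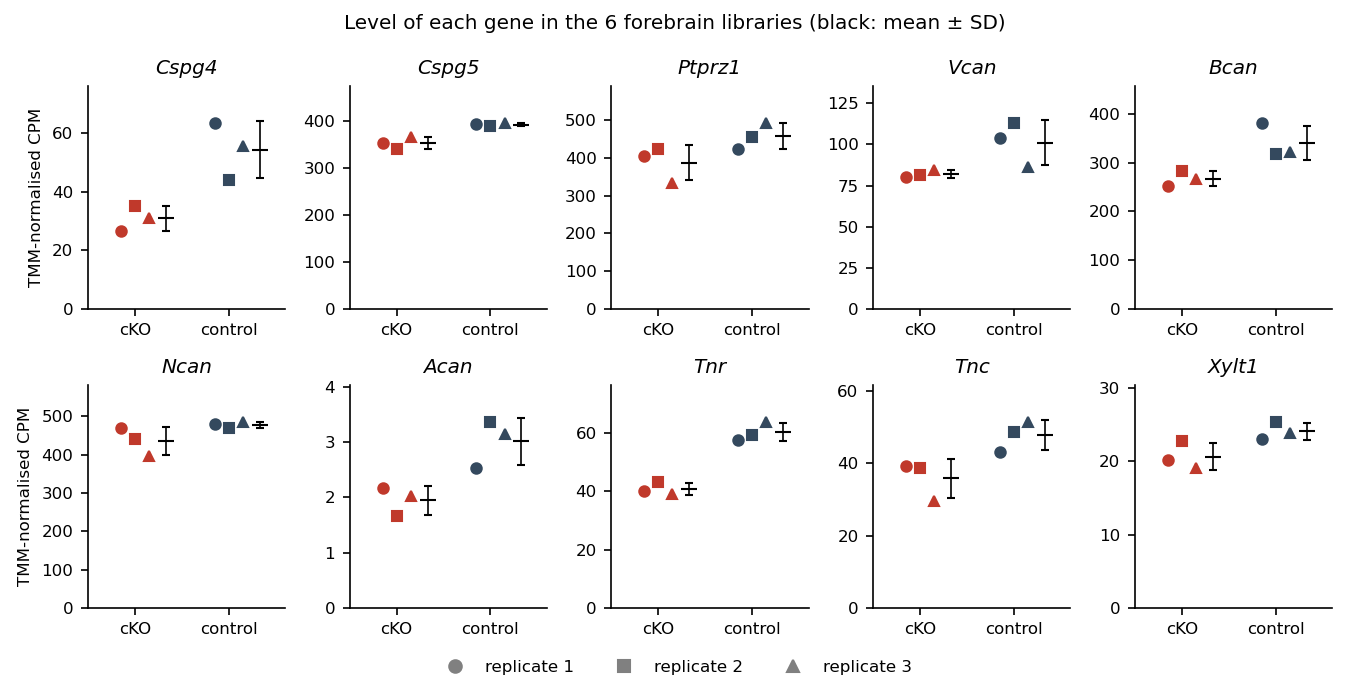
TMM-normalised CPM (vertical axes, each from 0) of the 10 genes in the 3 cKO libraries (red, left) and the 3 control libraries (dark, right), 1 point per mouse with the mean ± SD in black. In 9 panels every cKO point lies below every control point, and in the Ptprz1 panel they overlap.

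Tenascin-R, a glycoprotein that clusters lecticans and is made by the oligodendrocyte lineage and some interneurons, was the gene that passed. Tnr (ENSMUSG00000015829, chromosome 1, 159523769 to 159931729 in mm10, plus strand) was at 40.2, 43.0 and 39.0 CPM in cKO libraries and at 57.7, 59.4 and 63.6 CPM in control libraries. The groups were separated by a gap wider than the spread within either. Its mean was 40.7 ± 2.06 CPM in the cKO group and 60.2 ± 2.99 CPM in the control group (SD, n = 3 mice each), 32.4% lower. The log2 fold change was -0.57 ± 0.0712 (SE). The edgeR adjusted p was 0.00253, and Tnr ranked 22 of the 16938 genes by p. Permuting the 6 mice between groups gave an exact two-sided p of 0.1, which is the lowest value such a design can reach. The call held when any 1 library was left out, with log2 fold changes from -0.61 to -0.53. Exons of Tnr share 443 bp with Gm38039 on the opposite strand. The strand setting of the counting is not given in the sources used here, so the Tnr count is less certain than that of a gene with no such partner.

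Tenascin-C, a glycoprotein of radial glia, immature astrocytes and precursors, was lower on average without passing the test. Tnc (ENSMUSG00000028364, chromosome 4, 63959785 to 64047015) was at 39.2, 38.8 and 29.6 CPM in cKO libraries and at 43.2, 48.6 and 51.3 CPM in control libraries. The groups did not overlap, and cKO replicate 3 was well below the other cKO libraries. Its log2 fold change was -0.42 and its 95% confidence interval ran from -0.66 to -0.17 (edgeR adjusted p = 0.308). Without cKO replicate 3 the log2 fold change was -0.30. That library also had the lowest mean of the radial glia and progenitor markers among the cKO libraries, at -0.16 against 0.11 and 0.10 in cKO replicates 1 and 2, and control libraries were at 0.04, 0.15 and -0.24. Whether this bears on Tnc was not tested. Exons of Tnc share 176 bp with 8030451A03Rik on the opposite strand, which had 4 to 12 reads in cKO libraries and 12 to 13 in controls.

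Whether the 2 tenascins changed in proportion was read from their share within each library. Per length, on the scale of the authors' FPKM (fragments per kilobase of gene length, relative to library depth), Tnr made up 62.2%, 64.1% and 67.9% of Tnr plus Tnc in cKO libraries and 68.2%, 66.3% and 66.5% in control libraries. The groups overlapped. The difference was -2.27 percentage points, within the SD of 2.89 points among cKO libraries (exact two-sided permutation p = 0.3). It was -1.03 points without cKO replicate 1 and -3.86 points without cKO replicate 3, the lowest and highest sizes when each library was left out. Which tenascin had the higher level depends on the gene length. The authors divided by 4424 bp for Tnr, and its annotated exons together cover 12867 bp, while for Tnc these lengths were 7106 and 7772 bp. With the exon lengths, the mean share of Tnr was 40.9% in cKO and 43.3% in controls, which puts Tnc above Tnr.

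**Figure D2:**
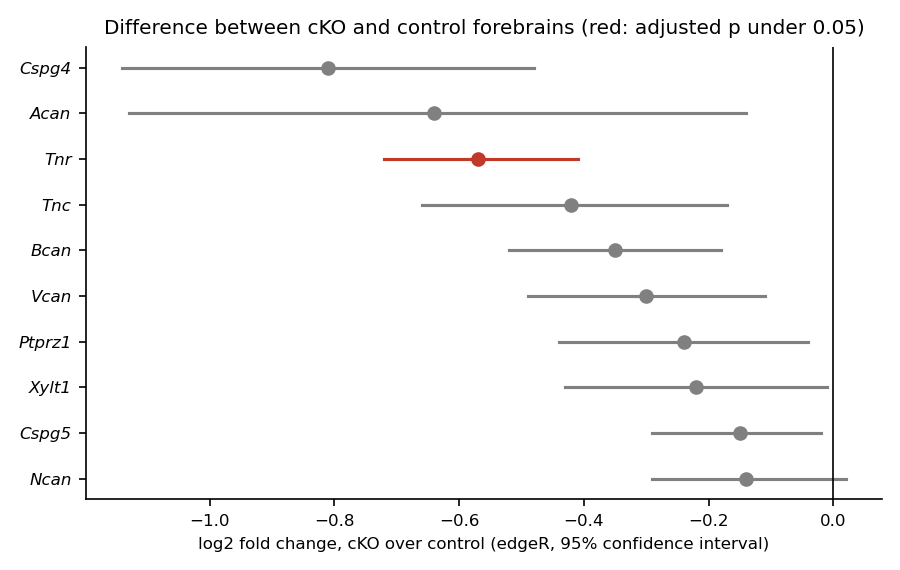
Log2 fold change of each gene, cKO over control, from edgeR (points) with its 95% confidence interval (lines), ordered by size. Tnr, in red, is the gene with an adjusted p under 0.05, and the interval of Ncan, from -0.29 to 0.02, is the one that includes 0.

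NG2, the membrane proteoglycan of oligodendrocyte precursors and of pericytes, had the lowest point estimate. Cspg4 (ENSMUSG00000032911, chromosome 9, 56865033 to 56899870) was at 26.6, 35.0 and 31.1 CPM in cKO libraries and at 63.5, 44.1 and 55.8 CPM in control libraries. All cKO values lay below all control values, and the control libraries were spread more widely. The means were 30.9 ± 4.23 CPM in the cKO group and 54.5 ± 9.79 CPM in the control group (SD, n = 3 mice each), 43.1% lower. On the log2 scale this was -0.81 (95% confidence interval -1.14 to -0.48). It did not pass edgeR (adjusted p = 0.118). It passed DESeq2 (adjusted p = 5.71e-07, log2 fold change -0.82). It also passed edgeR without control replicate 2, the lowest control (adjusted p = 0.00332, log2 fold change -0.94), a fit that called 0.179% of all genes as lower. These were the 2 of its 18 alternatives that called Cspg4. When each library was left out, its log2 fold change ran from -0.94 to -0.69. Of 14 pericyte and smooth muscle markers 0 were called (0.266% of all genes) and 4 had a negative log2 fold change (50.2%). At an unadjusted edgeR p under 0.05, 3 were higher (3.52% of all genes). In 2, the groups did not overlap and cKO was higher (6.08% of all genes). The median of the list was 0.17, and its summed level was 209 to 297 CPM in the cKO group and 214 to 242 CPM in the control group. The part of pericytes in the Cspg4 values was not tested.

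Cspg4 was also set against Pdgfra, the growth factor receptor of the same precursor cells, whose gene drives the recombinase. Pdgfra was at 113, 139 and 106 CPM in cKO libraries and at 160, 150 and 179 CPM in control libraries, or -0.45 as log2 fold change (adjusted p = 0.253, edgeR). The ratio of Cspg4 to Pdgfra, in FPKM, was 0.192, 0.205 and 0.239 in cKO libraries and 0.323, 0.240 and 0.254 in control libraries. The groups did not overlap, though cKO replicate 3 and control replicate 2 nearly met. The ratio was lower by a log2 difference of -0.35 (exact two-sided permutation p = 0.1, the smallest possible), from -0.44 to -0.22 when each library was left out. Exons of Pdgfra share 456 bp with Gm42802 on the opposite strand. For Tnr the same ratio was 0.529, 0.458 and 0.547 in cKO libraries and 0.535, 0.588 and 0.526 in control libraries, so those groups overlapped (log2 difference -0.11, exact two-sided permutation p = 0.5).

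The other 2 membrane proteins were abundant, with point estimates nearer to 0. Cspg5 (ENSMUSG00000032482, chromosome 9, 110243783 to 110262576), whose protein neuroglycan C is found on neurons and precursors, was at 352, 339 and 366 CPM in cKO libraries and at 393, 388 and 395 CPM in control libraries. The control values were close together and all above the cKO values. The log2 fold change was -0.15 (95% confidence interval -0.29 to -0.02, edgeR adjusted p = 0.725). Ptprz1 (ENSMUSG00000068748, chromosome 6, 22875502 to 23052916), made by radial glia, astrocytes and precursors, was at 405, 425 and 335 CPM in cKO libraries and at 424, 457 and 493 CPM in control libraries. Here the groups overlapped, since cKO replicate 2 was just above control replicate 1, and cKO replicate 3 was the lowest. On the FPKM scale they did not, with 51.1, 52.3 and 40.7 in cKO libraries and 52.7, 57.1 and 60.6 in control libraries. Its log2 fold change was -0.24 (adjusted p = 0.718), and -0.15 without cKO replicate 3.

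Brevican, the lectican of glial surfaces and synapses, and versican, of which oligodendrocyte precursors make an isoform, were lower on average in cKO. Bcan (ENSMUSG00000004892, chromosome 3, 87987531 to 88000230) was at 252, 282 and 267 CPM in cKO libraries and at 381, 318 and 322 CPM in control libraries. The groups did not overlap, and control replicate 1 was the highest. The log2 fold change was -0.35 (95% confidence interval -0.52 to -0.18, edgeR adjusted p = 0.165), and -0.26 without control replicate 1 (adjusted p = 0.483). Vcan (ENSMUSG00000021614, chromosome 13, 89655312 to 89742509) was at 80.2, 81.4 and 84.4 CPM in cKO libraries and at 104, 113 and 86.5 CPM in control libraries. The cKO libraries were tightly grouped, and control replicate 3 was only just above them. Its log2 fold change was -0.30 (95% confidence interval -0.49 to -0.11, adjusted p = 0.376).

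The calls of these 2 lecticans changed without control replicate 3, the library with low striatal and high thalamic markers. In that fit, Vcan fell by 0.41 on the log2 scale (edgeR adjusted p = 0.00285) and Bcan by 0.39 (adjusted p = 0.0262), and 3 of the 10 genes were called, these and Tnr, against 0.256% of all genes tested called as lower. The DESeq2 test of all 6 libraries also called Bcan (adjusted p = 0.00959), as did edgeR without the filter on low counts (adjusted p = 0.0079). Over all genes, those settings called 0.366% and 0.236% as lower. Versican is also made by meningeal fibroblasts. Of 16 fibroblast markers 0 were called (0.266% of all genes), 2 had a negative log2 fold change (50.2%) and the median was 0.28. At an unadjusted edgeR p under 0.05, 4 were higher (3.52% of all genes). In 3, the groups did not overlap and cKO was higher (6.08% of all genes). The summed level of the list was 590 to 799 CPM in the cKO group and 557 to 679 CPM in the control group. The part of fibroblasts in the Vcan values was not tested.

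Neurocan, secreted by neurons and astrocytes, had the point estimate nearest to 0. Ncan (ENSMUSG00000002341, chromosome 8, 70093085 to 70120873) was at 468, 440 and 396 CPM in cKO libraries and at 480, 469 and 484 CPM in control libraries. The lowest control and the highest cKO library differed by less than the spread among cKO libraries, and on the FPKM scale the groups overlapped. The log2 fold change was -0.14 (95% confidence interval -0.29 to 0.02, edgeR adjusted p = 0.835). Aggrecan, the core of perineuronal nets, which form later in life, was low. Acan (ENSMUSG00000030607, chromosome 7, 79053483 to 79115099) had 44, 41 and 58 reads in cKO libraries and 44, 73 and 69 reads in control libraries, or 2.17, 1.66 and 2.02 CPM in cKO and 2.54, 3.36 and 3.15 CPM in controls. The scaled values did not overlap, and each rests on 41 to 73 reads. The log2 fold change of -0.64 had a wide interval, from -1.13 to -0.14 (adjusted p = 0.631).

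Within the lectican family, the share of each gene overlapped between the groups. On the FPKM scale, Bcan made up 51.8%, 56.0% and 56.9% of the 4 lecticans in cKO libraries and 60.8%, 56.6% and 57.0% in control libraries. Ncan made up 43.7%, 39.6% and 38.2% in cKO libraries and 34.7%, 37.9% and 38.8% in control libraries. The groups overlapped for both, with differences of -3.23 and 3.39 percentage points (exact two-sided permutation p = 0.2 for each). The size of both rests on single libraries: for Bcan the difference was -1.68 points without cKO replicate 1 and -1.91 without control replicate 1, and for Ncan it was 1.80 and 2.19 points, within ranges of -4.23 to -1.68 and 1.80 to 4.54 when each library was left out. Vcan took 4.43% ± 0.253 in cKO and 4.54% ± 0.647 in controls, and Acan 0.178% ± 0.0282 in cKO and 0.231% ± 0.045 in controls (SD, n = 3 mice each), and those groups overlapped too (exact p = 0.8 and 0.3). For Vcan the difference was -0.112 points, and 0.249 points without control replicate 2, the 1 library whose omission turned its sign. Shares computed with the exon lengths gave Bcan 49.8% in cKO and 53.1% in controls.

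**Figure D3:**
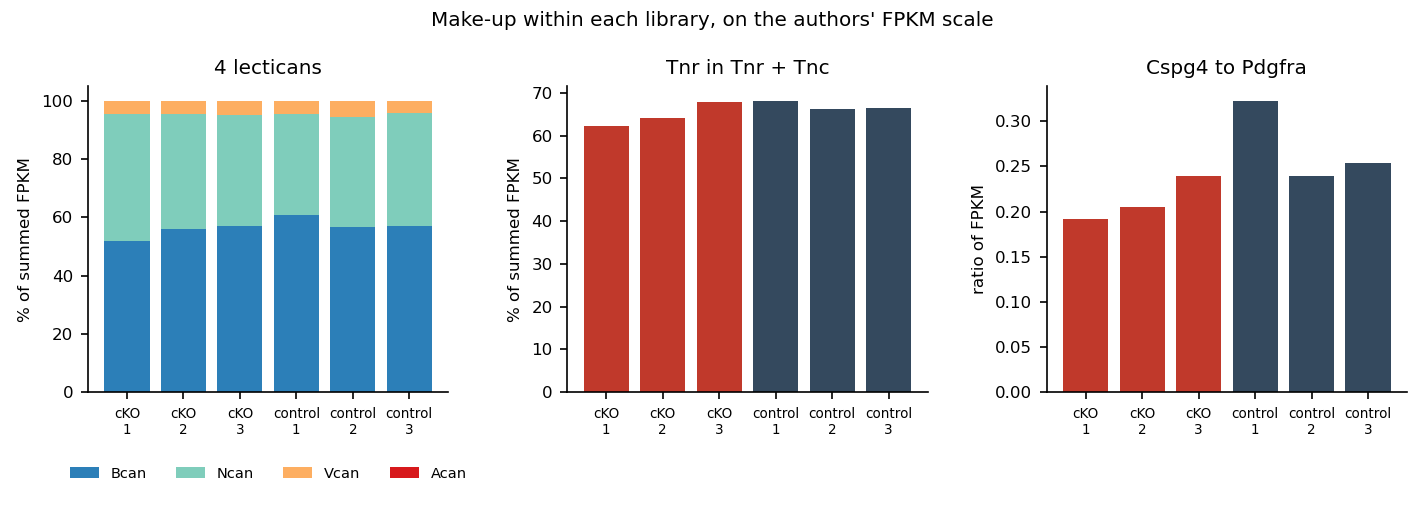
For each library (cKO left, control right), the share of each lectican in the summed FPKM of the 4 (left panel, %), the share of Tnr in Tnr plus Tnc (middle, %) and the ratio of Cspg4 to Pdgfra (right, both in FPKM). The shares overlap between the groups, and the ratio is 0.192 to 0.239 in cKO and 0.240 to 0.323 in controls.

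Xylosyltransferase 1 takes part in the first step of chain synthesis. Xylt1 (ENSMUSG00000030657, chromosome 7, 117380979 to 117673580) was at 20.1, 22.7 and 19.1 CPM in cKO libraries and at 23.0, 25.3 and 23.9 CPM in control libraries. The groups did not overlap, but cKO replicate 2 and control replicate 1 were nearly equal. The log2 fold change was -0.22 (95% confidence interval -0.43 to -0.01, edgeR adjusted p = 0.768).

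The 10 genes spanned a wide range of levels. Per length, on the authors' FPKM scale, Cspg5 and Bcan were at 90.9 ± 3.20 and 81.5 ± 3.87 in cKO, and at 101 ± 0.400 and 104 ± 11.0 in controls (SD, n = 3 mice each). In controls, the libraries of these leading genes overlapped, and in cKO they did not. Ncan followed at 60.3 in cKO and 66.4 in controls, then Ptprz1 at 48.0 in cKO and 56.8 in controls and Tnr at 9.18 in cKO and 13.6 in controls. Vcan, Xylt1, Cspg4 and Tnc lay between 3.82 and 6.58 in cKO and between 6.72 and 8.14 in controls. In controls each of these overlapped its neighbour in the order, and Acan was last at 0.264 in cKO and 0.410 in controls. The levels of Cspg5, Bcan, Ncan and Ptprz1 were above those of at least 92.7% of the tested genes. The order rests on the lengths used, since with exon lengths Cspg5 was below Ncan in both groups, at 34.9 in cKO and 39.0 in controls.

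**Figure D4:**
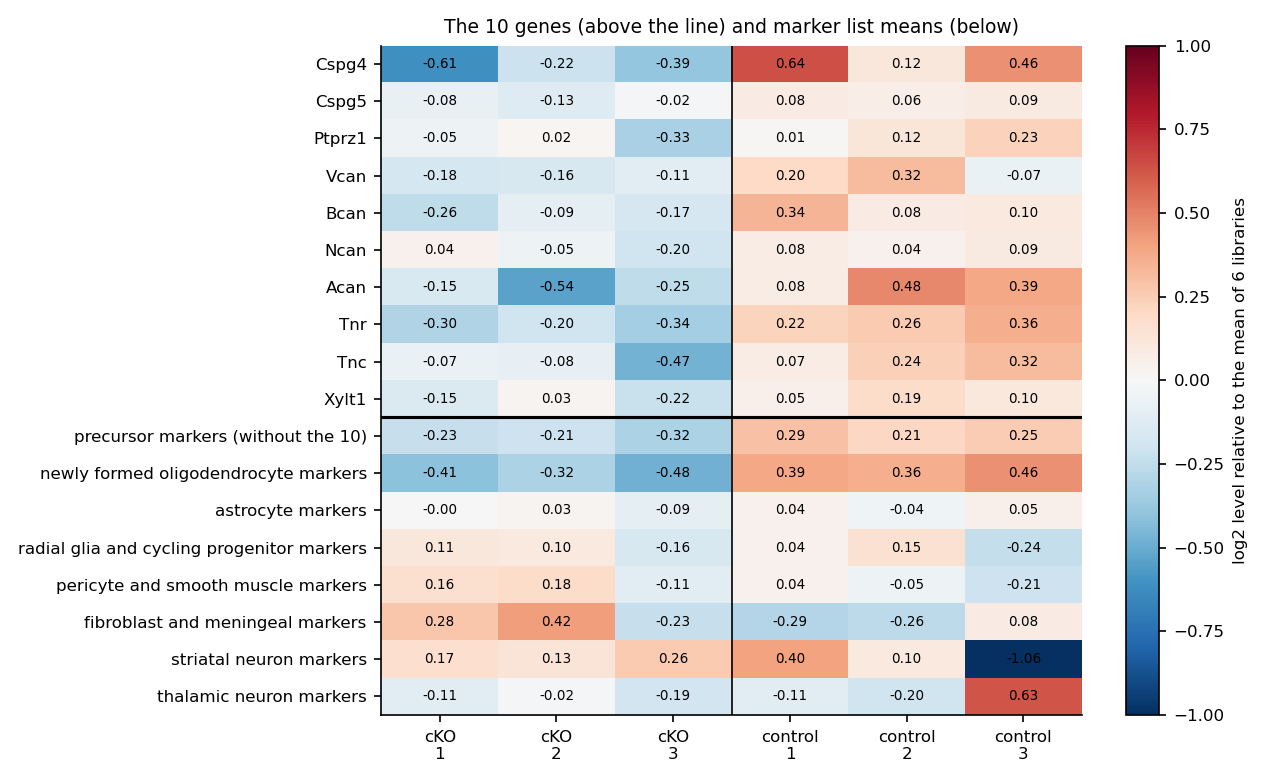
Log2 level of each gene (above the line) and mean log2 level of each marker list (below) in the 6 libraries, relative to the mean of all 6 (colour and printed value; cKO left, control right). Cspg4, Cspg5, Vcan, Bcan, Acan, Tnr and Tnc are below the mean in all cKO libraries, as are the precursor and newly formed oligodendrocyte lists. Control replicate 3 is at -1.06 for striatal neuron markers.

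The genes did not share 1 extreme library. cKO replicate 3 was the lowest cKO library for 5 of the 10 genes, Ncan, Ptprz1, Tnr, Tnc and Xylt1, cKO replicate 1 for 3 and cKO replicate 2 for 2. Control replicate 3 was the highest control for 5 genes and control replicate 1 for 2, Cspg4 and Bcan. Spread between mice, as the coefficient of variation of CPM, was 2.68% for Vcan and 15.1% for Tnc in cKO, and 0.903% for Cspg5 and 18.0% for Cspg4 in controls, these being the lowest and highest of the 10 in each group.

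Part of the oligodendrocyte lineage markers fell as well. Of 19 tested precursor markers outside the 10 genes, 5 fell (background 0.207%) and 16 had a negative log2 fold change, with a median of -0.33. Sox10, the factor needed for oligodendrocyte differentiation, was at 16.8 ± 0.301 CPM in the cKO group and 44.7 ± 2.98 CPM in the control group (log2 fold change -1.41). The summed precursor level was 1018 to 1092 CPM in the cKO group and 1206 to 1331 CPM in the control group. Of 15 newly formed oligodendrocyte markers 5 fell (median -0.63), with sums of 580 to 613 CPM in the cKO group and 910 to 949 CPM in the control group, and of 19 myelin markers 7 fell (median -0.52), with sums of 377 to 432 CPM in the cKO group and 664 to 833 CPM in the control group. Astrocyte markers, whose cells also make several of the 10 genes, had a median of 0.01 with 0 of 20 called, and summed to 6088 to 6611 CPM in the cKO group and 5979 to 6395 CPM in the control group. Neuron markers had a median of -0.05 with 0 of 20 called. The part of cell numbers in the lower levels of the 10 genes was not tested.

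Among genes that build, sulfate or break down the chondroitin chain, 0 of 33 tested were called, against 0.266% of all tested genes. Their median log2 fold change was -0.05. An unadjusted p under 0.05 was reached by 4, all lower, against 2.75% of tested genes. Ust, which sulfates uronic acid residues of the chain, was at 21.1 ± 1.53 CPM in the cKO group and 30.5 ± 3.01 CPM in the control group (SD, n = 3 mice each), and its log2 fold change of -0.53 just missed the threshold (adjusted p = 0.051, edgeR). Ust also stands in the list of newly formed oligodendrocyte markers. Chst3, a chondroitin 6-sulfotransferase, was at 3.76 ± 0.895 CPM in the cKO group and 6.13 ± 0.318 CPM in the control group (-0.71, adjusted p = 0.325). Papss1, which makes the sulfate donor, and Chst11, a chondroitin 4-sulfotransferase, had log2 fold changes of -0.24 and -0.28 (adjusted p = 0.283 and 0.552).

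The partners and remodellers of the matrix had medians near 0, and 0 genes of these lists were called, against 0.266% of all tested genes. Beside so low a share, 0 calls do not set these lists apart. Hyaluronan synthases, link proteins, hyaluronan-degrading enzymes, hyaluronan receptors and other binding proteins together had a median of 0.11 over 19 genes. Tnfaip6, which modifies hyaluronan, was at 2.72 ± 0.722 CPM in the cKO group and 1.45 ± 0.135 CPM in the control group (log2 fold change 0.89, edgeR adjusted p = 0.403). Hyal1, a hyaluronidase, and Hmmr, a hyaluronan-binding protein of dividing cells, had -0.40 and 0.40 (adjusted p = 0.835 and 0.839). Microglia markers, beside these, had a median of 0.45 with 0 of 16 called, and 0.29 without control replicate 3. Of the 16, 0 had a negative log2 fold change, 9 were higher at an unadjusted edgeR p under 0.05 (3.52% of all genes) and 10 did not overlap between groups and were higher in cKO (6.08% of all genes). Their part in the values of the proteoglycan and tenascin genes was not tested.

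Ligands, receptors and partners had a median of -0.04 over 35 tested genes. Erbb3, a neuregulin receptor to which neuroglycan C has been reported to bind, was at 1.71 ± 0.0954 CPM in the cKO group and 3.28 ± 0.850 CPM in the control group (log2 fold change -0.94, edgeR adjusted p = 0.279; SD, n = 3 mice each). The integrin subunits Itga9 and Itga8, whose dimers bind tenascin-C, had log2 fold changes of -0.50 and 0.33 (adjusted p = 0.485 and 0.627), and Fbln2, a lectican-binding fibulin, had 0.25 (adjusted p = 0.753). Matrix proteases and inhibitors had a median of -0.07 over 19 genes. Among them Adamts4 and Adamts9, which cut lecticans, had log2 fold changes of -0.35 and -0.26 (adjusted p = 0.725 and 0.776), the inhibitor Timp4 had -0.24 (adjusted p = 0.719) and the gelatinase Mmp2 had 0.37 (adjusted p = 0.785).

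Other tenascins and proteoglycans did not follow the 10 genes as a list. Their median was 0.04 over 15 tested genes with 0 called (0.266% of all genes), and 5 of the 15 were negative (50.2% of all genes). Tnn, a further tenascin gene, was barely expressed, at 0.800 ± 0.138 CPM in the cKO group and 1.40 ± 0.519 CPM in the control group, and Tnxb, the tenascin of connective tissue, had 0.19 as log2 fold change, against -0.81 for Tnn (adjusted p = 0.86 and 0.768 by edgeR). The secreted calcium-binding protein gene Smoc1 was at 23.3 ± 2.38 CPM in the cKO group and 29.7 ± 1.06 CPM in the control group (-0.35, adjusted p = 0.279), while Bgn, the small proteoglycan biglycan of fibroblasts and vessels, was at 25.7 ± 5.34 CPM in the cKO group and 17.5 ± 1.49 CPM in the control group (0.55, adjusted p = 0.301; SD, n = 3 mice each). Proteoglycans with heparan sulfate and the enzymes for that chain had a median of -0.01 over 29 genes, with 0 called. Sulf2, which removes sulfate from heparan chains, had a log2 fold change of -0.34, and perlecan (Hspg2), the heparan sulfate proteoglycan of basement membranes, had 0.43 (adjusted p = 0.165 and 0.255). Extl1, a glycosyltransferase of the heparan family, and Col18a1, the collagen core of a vascular proteoglycan, had 0.38 and 0.37 (adjusted p = 0.619 and 0.633).

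**Figure D5:**
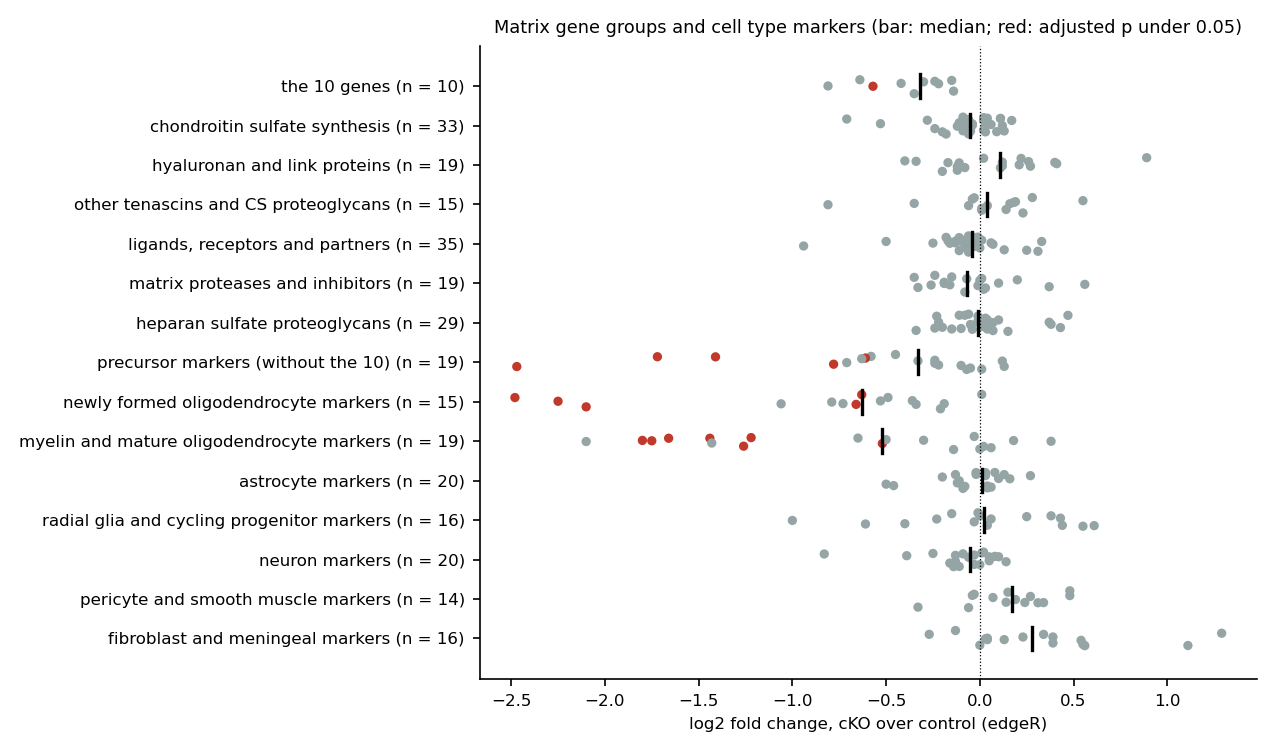
Log2 fold change, cKO over control, of each tested gene (points) in the matrix lists and the marker lists, with the median of each list (black bars) and called genes in red. The 10 genes have a median of -0.32, the precursor markers -0.33, and the other matrix lists lie between -0.07 and 0.11.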

How the data were processed

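Poly-A RNA of 6 forebrains was made into directional libraries, per the labels' protocols. The authors deposited read counts per Ensembl gene and FPKM values. Per the submitters' processing notes, the tools were CASAVA, STAR 2.5, HTSeq 0.6.1 and DESeq, and the build was mm10; what each did is not given in the sources used here. The deposited FPKM equalled the count divided by 1 whole length per gene (within 0.01 bp) and by the table's total. The table named 34490 of 35275 identifiers through GENCODE M21, which has the same build.

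Counts were tested with edgeR 4.0.16 (quasi-likelihood, robust, TMM, filterByExpr with a minimum count of 10 and total of 15) in R 4.3.3. Benjamini-Hochberg adjustment covered all 16938 tested genes, with a threshold of 0.05. The test was checked on simulated counts with changes larger than those of the 10 genes, so the check does not cover changes of their size. Shares and ratios used FPKM and exact permutation of the mice. Per-library list means used log2(CPM + 0.5). Replicate numbers are not said to mark a litter or day, so the mice were not paired in the main test. No 2 libraries agreed within sampling noise, the lowest chi-square per degree of freedom being 4.34. The labels do not say how the mice of a group differed, beyond both sexes being used. In the counts, sex was not balanced and control replicate 3 stood apart in striatal and thalamic markers. The p-values set the difference between groups against the spread between these mice.

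The 10 genes and the gene lists were chosen with earlier results of these data known. Named genes were the 10, Parp1, Pdgfra, and from each other list the called genes and up to 4 others with the smallest p, fewer for marker lists; 1 gene that this rule takes is not reported here. Alternatives were DESeq2 1.42.0, limma 3.58.1 (voom, or log2 of FPKM plus 1 or 0.1), other scalings and filters, a replicate block and leaving out each library. Exon-union lengths, and leaving out libraries from the count of genes whose groups do not overlap, were added after seeing the data.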

Additional observations from a re-analysis of the deposited data

How the results depend on the processing

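The log2 fold changes of the 10 genes stayed negative under all 18 alternatives (16 for Acan, which has no value where a mean FPKM of at least 0.5 was required). Tnr was called in 17 of its 18 alternatives, the exception being log2(FPKM + 1) with no filter (log2 fold change -0.52, adjusted p = 0.0708), where 0 of the 10 genes were called. DESeq2 called 3 of the 10, adding Cspg4 (-0.82) and Bcan (-0.35), and called 0.366% of all tested genes as lower. With no filter on low counts, edgeR called 3 of the 10, adding Bcan (-0.34) and Tnc (-0.41, adjusted p = 0.0446). That fit called 0.236% of all tested genes as lower. The number of the 10 genes called was 1 to 3 when each library was left out. Those fits called 24 to 44 of all tested genes as lower. Leaving out 1 library, the log2 fold changes ran from -0.94 to -0.69 for Cspg4, from -0.41 to -0.21 for Vcan and from -0.40 to -0.26 for Bcan. The number of the 10 genes whose groups did not overlap was 9 or 10 when each library was left out. Leaving out a library cannot make separated groups overlap, so this number could not fall below 9 and is no check.

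Over all genes, 45 were called (35 lower, 10 higher). DESeq2 called 113 (62 lower, 51 higher), no filter 111 (61 and 50), log2(FPKM + 1) or log2(FPKM + 0.1) with a mean of at least 0.5 gave 24 (20 and 4), and log2(FPKM + 1) with no filter gave 17 (14 and 3). Higher genes numbered 6 without robust dispersion. Leaving out 1 library gave 28 to 60 called, with 4 to 19 higher. With the replicate block, 5 genes were higher, and Tnr had adjusted p = 0.0264. Same-numbered mice did not deviate together (correlations 0.004, -0.046 and 0.007), no mouse correlated best with its own number, and the block was not used in the main test. The causes of these shifts were not tested. Of the list medians, 15 of 342 alternative values moved by more than the spread between mice. Among all 342 values, moved or not, the sign changed in 14. These were in 8 of the 19 lists, all with main medians between -0.25 and 0.25. Without control replicate 3, the medians of the striatal and thalamic lists were -0.08 and 0.05, against 0.25 and -0.23 with all libraries. Counts of 41 to 73 reads limit Acan.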
